A study of Vulpes vulpes with 8 samples.

Results

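The genes described here belong to 2 linked systems in the gum of red foxes: the enzymes and carriers that break glucose down to lactate, and the genes that sense low oxygen or are switched on by it. The list held 35 genes, chosen by name: 16 glycolytic enzymes, 6 transporters and regulators of glycolysis, and 13 genes of the hypoxia response. Of these, 34 had a probe set annotated to that gene alone, 82 probe sets in all, and the brightest probe set, by mean log2 signal, was used for each gene. LDHB had none and was not analysed here. After the dimmest probe sets were left out, 31 genes of the list were tested, among 10824 genes tested in all. ENO2, SLC16A3 and BNIP3 were too dim to be tested.

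The series compared gingiva from red foxes (Vulpes vulpes) affected by HHG (hereditary hyperplastic gingivitis), in which gum tissue overgrows and which runs in families, with gingiva from unaffected foxes. Affected foxes 19, 55 and 107 were males and 381 and 757 females; unaffected foxes 86 and 97 were males and 402 was a female, and each of the 8 foxes gave 1 array. Affected status was read from early signs at the tooth margins, and the labels name no treatment, age or allele. Some pieces came from animals killed at pelting and some from anaesthetised animals in late spring, but the labels do not say which fox belongs to which season, so its part in any result was not tested.

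Glycolysis turns glucose into pyruvate and yields a little ATP without oxygen; lactate dehydrogenase then regenerates the cofactor that lets the pathway run on. When oxygen falls, the prolyl hydroxylases encoded by the EGLN genes stop marking the HIF alpha subunits for destruction by the VHL complex, and HIF, paired with ARNT, raises the transcription of most glycolytic enzymes, of the glucose carrier SLC2A1 and of genes such as VEGFA, CA9 and ADM. HIF1A itself is set mainly at the level of its protein, which arrays do not read. In a stratified epithelium such as gingiva the layers farthest from the capillaries lie at low oxygen, and neutrophils, which are common in inflamed gum, live largely on glycolysis.

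The arrays were built for the dog (Affymetrix Canine 2), so the probes carry the sequence of another canid, and mismatches with fox RNA can lower a signal alike in both groups. Signals are MAS5 intensities on a linear scale with the same trimmed mean on every array, and differences are affected minus unaffected on log2(signal + 16), a scale on which the changes of dim genes are understated. Median signal was 28.6 to 33.7 across the arrays, the background read from bacterial control probe sets was 7.42 to 16.6, and the median standard error of a group difference was 0.23. Readings of the control for the 5' end of beta-actin fell into 2 sets, high in foxes 86, 97, 107 and 757 (7831 to 8868) and low in foxes 19, 55, 381 and 402 (1354 to 2336). This 5' signal depends on the length of the labelled RNA, and both sets hold both groups. Fox 402 is the only unaffected fox of the low set and also the only unaffected female. Differences within the low set and within females therefore both rest on that fox. Defining markers of keratinocytes (DSG3, DSP, KRT13), fibroblasts (COL1A1) and cornifying cells (IVL) were bright on all arrays, while KRT5 and KRT14 had no probe set of their own. Other markers on the same lists were dimmer. TP63 averaged 52.7 in affected and 105 in unaffected foxes, and PDGFRA 47.7 and 65.6. KRT1 lay at background in 3 affected and 2 unaffected foxes, KLK7 in 2 and 2, and DSC1 in 2 and 1. In pieces of tissue, fewer cells of a type and less RNA per cell cannot be told apart.

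No gene of the list passed the test between affected and unaffected foxes at an adjusted p under 0.05 (limma, Benjamini-Hochberg over 25754 probe sets), where 0% of all probe sets passed. At an unadjusted p under 0.05, 2 of the 31 tested genes passed, GPI and SLC2A3, against 2.69% of all probe sets. The adjusted p was 0.9999 for each of the 31 genes in limma. The mean log2 level was higher in the affected foxes for 24 of the 31 genes, or 77.4%, where 43.5% of all probe sets read higher. The median difference was 0.21 for the 31 genes and -0.037 for all probe sets. In 3 genes, GPI, PGK1 and ENO1, each affected fox lay above each unaffected fox, where 0.909% of all probe sets did so; in no gene did each affected fox lie below each unaffected fox, against 1.52% of all probe sets. The background share depends on the scaling. With each array centred on its median, 55.9% of all probe sets and 25 of the 31 genes read higher, and after quantile normalization 48.3% and 22 of 31. The genes of the list share control by common factors, so their counts are not independent, and they are given as a description.

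Among the glycolytic enzymes, the differences were small and mostly in one direction. Of the 14 tested, 12 had the higher mean in affected foxes, with a median difference of 0.21 and a range from -0.14 to 0.49. The count was 12 of 14 within the foxes of high 5' actin and 13 of 14 within those of low 5' actin, with medians of 0.26 and 0.19. In GPI, PGK1 and ENO1 the separation of the groups fixes the sign within both sets. Unaffected fox 86 weighed on this class: its mean centred log2 level was -0.31, it lay below the gene's mean in all 14 enzymes and it was the lowest fox in 9 of 14, whereas 13.2% of all probe sets were lowest in fox 86. The other unaffected foxes averaged 0.09 (fox 97) and -0.11 (fox 402), and the affected foxes ran from 0.002 (fox 757) to 0.15 (fox 107). Without fox 86, 11 of 14 enzymes read higher in affected foxes, with a median of 0.14.

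GPI, which turns glucose 6-phosphate into fructose 6-phosphate and is also secreted as a cytokine, had the smallest p of the enzymes. Its signal was 4665, 6903, 4865, 4615 and 4614 in affected foxes 19, 55, 107, 381 and 757, and 2999.7, 3963 and 3923 in unaffected foxes 86, 97 and 402. All affected foxes lay above all unaffected foxes, and fox 55 stood well above the other affected foxes. The means were 5132 ± 995 (SD, n = 5) and 3628 ± 545 (SD, n = 3), a log2 difference of 0.49 ± 0.20 (SE; limma, unadjusted p = 0.0318, adjusted p = 0.9999). Leaving out fox 55 gave 0.38 and leaving out fox 86 gave 0.36. The difference was 0.46 within the foxes of high and 0.43 within those of low 5' actin, and 0.64 in males against 0.23 in females. The separation of the groups by itself fixes the sign in these subsets.

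PGK1 makes the first ATP of the pathway and is a long-known HIF target. Its signal was 3926, 2862, 3347, 3051 and 2935 in the affected foxes, in the same order, and 2043, 2574 and 2796 in the unaffected foxes. The groups did not overlap, but the lowest affected fox, 55, was close to the highest unaffected fox, 402. Means were 3224 ± 434 (SD, n = 5) and 2471 ± 387 (SD, n = 3), a log2 difference of 0.38 ± 0.18 (SE; limma, unadjusted p = 0.0602, adjusted p = 0.9999). It was 0.54 in males, 0.10 in females and 0.25 without fox 86. As in GPI, the separation of the groups fixes the sign of each of these. One of the other probe sets of PGK1 was left out as dim and read 17.3 and 11.8 on average.

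ENO1 carries out the enolase step, and its protein also sits on cell surfaces as a plasminogen receptor. ENO1 read 11536, 12528, 12720.4, 11294 and 11540.3 in the affected foxes and 10588, 9903 and 9658 in the unaffected foxes. Here too the groups stood apart, with little spread within either. Means were 11924 ± 651 (SD, n = 5) and 10049.7 ± 482 (SD, n = 3), a difference of 0.25 ± 0.15 (SE; limma, unadjusted p = 0.125, adjusted p = 0.9999). The difference was 0.26 in males and 0.24 in females, and 0.24 in foxes of high and 0.29 in foxes of low 5' actin. Because the groups stood apart, the sign in these subsets was fixed. The female and the low 5' actin values both rest on unaffected fox 402. The 2 further tested probe sets of ENO1 gave 0.24 and 0.11.

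TPI1 interconverts the 3-carbon sugars made by aldolase. TPI1 read 3416, 3672, 3936, 3155 and 3296 in the affected foxes and 2500.3, 3291 and 2856 in the unaffected foxes. Only fox 97 among the unaffected reached into the affected range. The difference was 0.28 ± 0.17 (SE; limma, unadjusted p = 0.120, adjusted p = 0.9999), and the second tested probe set gave 0.09.

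**Figure D1:**
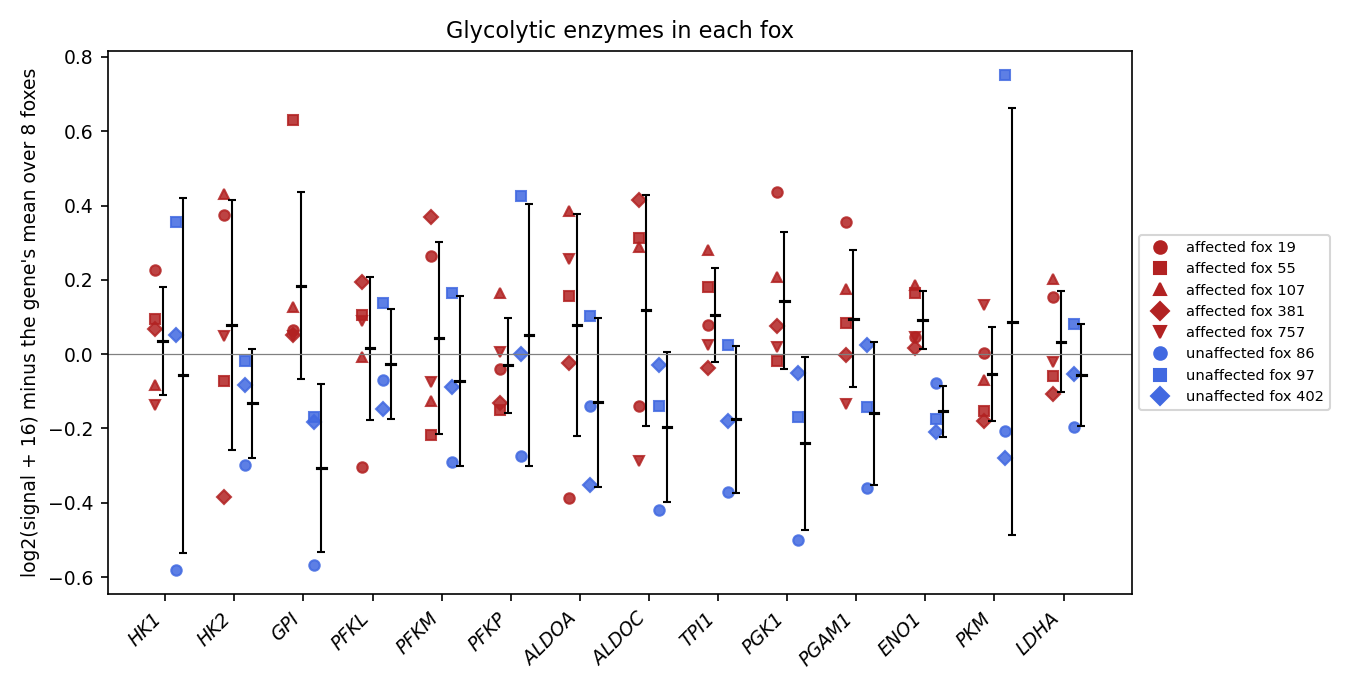
Log2(signal + 16) of the 14 tested glycolytic enzymes in each of the 8 foxes, centred on each enzyme's mean over the foxes, with affected foxes in red, unaffected foxes in blue and black bars for each group's mean ± SD. In GPI, PGK1 and ENO1 every affected fox lies above every unaffected fox, fox 55 is far up in GPI, fox 97 is far up in PKM, and fox 86 is the lowest fox in 9 of the 14 enzymes.

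LDHA, which turns pyruvate into lactate and is among the most used readouts of HIF activity, had one of the smaller differences. LDHA read 10130.0, 8748, 10483, 8455 and 8968 in the affected foxes and 7952, 9627 and 8769 in the unaffected foxes. The ranges overlapped in part, with foxes 19 and 107 above all unaffected foxes and unaffected fox 86 below all affected foxes. Means were 9357 ± 895 (SD, n = 5) and 8783 ± 837 (SD, n = 3), a difference of 0.09 ± 0.16 (SE; limma, unadjusted p = 0.586, adjusted p = 0.9999), and it turned to -0.012 after quantile normalization and to -0.010 in females alone.

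The other enzymes are given by their group means, affected then unaffected. Of the hexokinases, which trap glucose in the cell, HK1 read 378 ± 39.8 and 366 ± 118, and HK2, the HIF-responsive form, 42.1 ± 13.1 and 33.3 ± 4.90. Phosphofructokinase commits sugar to the pathway; its subunits read 324 ± 42.7 and 313 ± 34.2 (PFKL), 229 ± 44.7 and 209 ± 35.8 (PFKM), and 320.4 ± 30.3 and 346 ± 90.1 (PFKP). These 5 genes differed by between -0.081 (PFKP) and 0.21 (HK2). The aldolases, which split the phosphorylated sugar, read 6255 ± 1219 and 5369.9 ± 849.8 (ALDOA) and 973 ± 202 and 770.0 ± 106 (ALDOC), with differences of 0.21 and 0.31. PGAM1, the phosphoglycerate mutase, read 3659 ± 477 and 3062 ± 405, a difference of 0.25, and its second probe set gave 0.45. PKM, the pyruvate kinase, went the other way, with 358 ± 33.3 and 418 ± 187 and a difference of -0.14. That lower mean came with a single unaffected fox, 97, at 634; without fox 97 the PKM difference was 0.19. ENO2, the neuronal enolase, was dim, at 15.2 ± 6.65 and 26.0 ± 25.2, and lay at background in 1 affected and 1 unaffected fox.

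GAPDH, the enzyme between TPI1 and PGK1, is no member of the list, and its ordinary probe set was dim, at 20.0 in affected and 19.3 in unaffected foxes. The array also carries 6 GAPDH control probe sets, in 2 series that read the 5' end, the middle and the 3' end of the transcript. They were left out of the test as controls and were examined after the values of the enzymes had been seen. In the first series the middle probe set read 6592 to 7168 over the affected and 5171 to 5434 over the unaffected foxes, a difference of 0.38 ± 0.14 (SE), and the 5' probe set read 8487 to 9574 and 7261 to 7765, a difference of 0.29 ± 0.14 (SE). In the second series the middle probe set read 1694 to 2350 and 1258 to 1565 (0.47 ± 0.18, SE), and the 5' probe set 1630 to 2291 and 1274 to 1519 (0.41 ± 0.17, SE). In these 4, which read a single transcript, each affected fox lay above each unaffected fox, as in 0.909% of all probe sets. That separation by itself fixes the direction within the high and within the low 5' actin foxes, so those subsets add no further check. The 3' probe sets had differences of 0.24 and 0.41 with overlapping groups. With the 6 kept in the fit, no GAPDH control passed (limma, adjusted p = 0.9999 for each), and the unadjusted p of the first middle probe set was 0.0246.

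**Figure D2:**
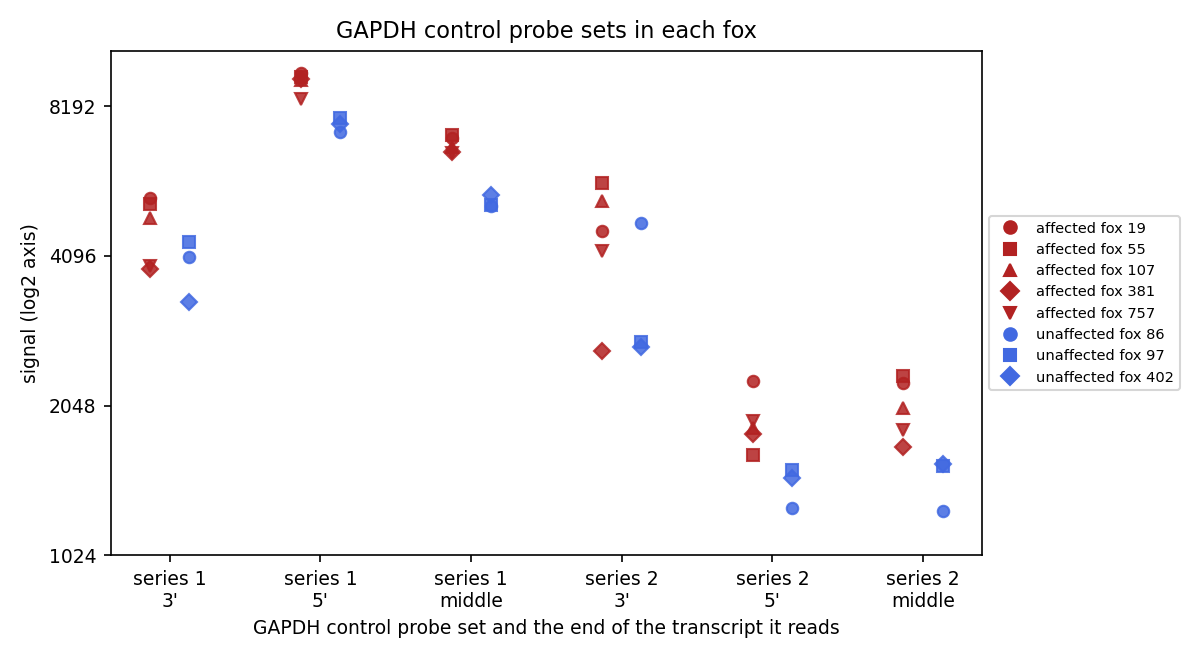
Signal on a log2 axis in each of the 8 foxes for the 6 GAPDH control probe sets, by series and by the part of the transcript they read (3', 5', middle), with affected foxes in red and unaffected foxes in blue. Each affected fox lies above each unaffected fox in the 5' and middle probe sets of both series, and the groups overlap at the 3' end.

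The transporters and regulators showed no common direction. Of 5 tested, 3 had the higher mean in affected foxes, with a median of 0.23, none had groups that stood apart, and 1 (SLC2A3) had an unadjusted p under 0.05. SLC2A3, a high-affinity glucose carrier of neurons and white cells, read 313, 234, 334, 258 and 292 in the affected foxes and 305, 120.3 and 147 in the unaffected foxes. Unaffected foxes 97 and 402 lay well below all affected foxes, but fox 86 lay among the affected. The means were 286 ± 40.8 (SD, n = 5) and 191 ± 100.1 (SD, n = 3), a difference of 0.64 ± 0.27 (SE; limma, unadjusted p = 0.0407, adjusted p = 0.9999). It was 1.01 without fox 86 and 0.39 without fox 97. The 3 other probe sets of SLC2A3 gave 0.25, 0.34 and 0.41. The difference held its sign within both sexes (0.55 in males, 0.83 in females) and both actin sets (0.65 in high, 0.79 in low). Fox 402 was the only unaffected fox in the female and in the low 5' actin comparison, so these are not separate checks.

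White cells are one place where SLC2A3 is made, and their marker lists differed among themselves. All 5 measured neutrophil markers had the higher mean in affected foxes, and their signals summed to 25678 to 30700 in the affected group and 25343 to 29023 in the unaffected group. That sum is nearly all S100A8 and S100A9, which differed by 0.060 and 0.096, whereas LCN2 differed by 1.44 ± 0.35 (SE; limma, unadjusted p = 0.0022, adjusted p = 0.9999) and MMP9 by 1.23 ± 0.33 (SE; limma, unadjusted p = 0.0040, adjusted p = 0.9999). LCN2 and MMP9, named like CD68 and TP63 after their values were seen, are made by epithelium as well as by neutrophils. All 6 macrophage markers also had the higher mean, with sums of 948 to 3011 and 1040 to 2895, and the widest difference among them was that of CD68, at 1.07 ± 0.35 (SE; limma, unadjusted p = 0.012, adjusted p = 0.9999). In LCN2, MMP9 and CD68 each affected fox lay above each unaffected fox, as in 0.909% of all probe sets, and fox 97, which was lowest in SLC2A3, was the lowest fox in each of the 3. Of the T and B cell markers, 2 of 6 had the higher mean, with sums of 126 to 784 in the affected and 220.3 to 1308 in the unaffected group. The macrophage sum was lowest in foxes 19 (948), 97 (1040) and 402 (1148) and high in fox 86 (2895), and SLC2A3 was likewise low in foxes 97 and 402 and high in fox 86, but high too in fox 19. The single macrophage markers differed in fox 19. C1QA, the brightest, C1QB and CSF1R were lowest there, whereas CD163 was highest there (105). CD68 and CD14 were lowest in fox 97 and CD163 in fox 402. The part of these cells in the SLC2A3 difference was not tested.

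SLC2A1, the widespread glucose carrier and a classic HIF target, read 2441, 1421, 2416, 1425 and 1561 in the affected foxes and 1689, 1493 and 1417 in the unaffected foxes. Foxes 19 and 107 stood apart at the top, and the other affected foxes lay within the range of the unaffected ones. The difference was 0.23 ± 0.24 (SE; limma, unadjusted p = 0.352, adjusted p = 0.9999), and 0.12 without fox 19. SLC16A3, the carrier that exports lactate, read 5.15 ± 1.74 and 3.10 ± 2.00 and lay at background on all 8 arrays, so these data hold no measure of it. PDK1, which keeps pyruvate out of the mitochondria, read 1193 ± 353 and 1204 ± 299.6, a difference of -0.032.

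The 2 bifunctional enzymes that set the level of fructose 2,6-bisphosphate, the main activator of phosphofructokinase, differed in opposite directions. PFKFB3, the strongly glycolytic form, read 218, 117, 286, 193 and 273 in the affected foxes and 237, 527 and 232 in the unaffected foxes. Fox 97 was far above all the others, and the remaining unaffected foxes lay among the affected. The difference was -0.53 ± 0.34 (SE; limma, unadjusted p = 0.144, adjusted p = 0.9999), and -0.16 without fox 97; the other tested probe sets gave -0.67 and -0.47. PFKFB4 read 40.4, 36.9, 30.7, 16.5 and 41.2 in the affected foxes and 11.4, 18.8 and 43.3 in the unaffected foxes, with fox 86 at background. Its low readings were foxes 381, 86 and 97 and the groups overlapped, with a difference of 0.33 ± 0.28 (SE; limma, unadjusted p = 0.271, adjusted p = 0.9999). The PFKFB4 difference was 0.74 within the foxes of high and -0.37 within those of low 5' actin.

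Whether 2 forms of an enzyme shifted unequally was tested on the difference of their log2 levels within each fox. The PFKFB4 minus PFKFB3 difference was 0.86 larger in affected foxes (-2.22 ± 0.56, SD, n = 5, against -3.08 ± 0.96, SD, n = 3; 2-sided exact permutation test, p = 0.143, adjusted p = 0.429 over 3 contrasts). It was 1.37 without fox 402 and 0.42 without fox 97. HK2 minus HK1 differed by 0.12 (exact permutation p = 0.696, adjusted 0.696), and PFKP minus PFKM by -0.20 (exact permutation p = 0.411, adjusted 0.616). The smallest p this design allows is 0.0179. These contrasts say nothing of which form is the more abundant.

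The genes of the oxygen-sensing system and the HIF targets had a wider median span over the foxes than the enzymes or all probe sets. Of 12 tested, 9 had the higher mean in affected foxes, with a median difference of 0.13 and a range from -0.61 (EGLN3) to 0.55 (ADM); none had an unadjusted p under 0.05 and in none did the groups stand apart. The median was 0.26 within the foxes of high and 0.24 within those of low 5' actin. It was 0.32 without fox 55 or without fox 86, 0.061 without fox 107 and 0.039 without fox 402. The span from the lowest to the highest fox had a median of 1.22 on the log2 scale over these 12 genes, against 0.74 over the 14 enzymes and 0.93 over all probe sets. The narrowest spans of the list were 1.31-fold in HIF1A and 1.32-fold in ENO1 and LDHA, and the widest 12.04-fold in EGLN3, 4.62-fold in ADM, 4.08-fold in PFKFB3 and 3.12-fold in EGLN1. HIF1A, ENO1 and LDHA were also the brightest genes of the list, and the part of signal level in the spans was not tested.

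Single foxes were high or low across many of the 12. Affected fox 19 had the highest reading in 5 of 12 (13.9% of all probe sets were highest in fox 19) and a mean centred level of 0.39, and affected fox 107 lay above the gene's mean in 10 of 12, with 0.30. Affected fox 55 was lowest in 4 of 12 (19.8% of all probe sets were lowest in fox 55), with -0.42, and unaffected fox 402 was lowest in 5 of 12 (10.3% of all), with -0.21. The remaining foxes averaged -0.20 (381), 0.10 (757), -0.01 (86) and 0.06 (97). The highest and the lowest mean thus both belonged to affected foxes.

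**Figure D3:**
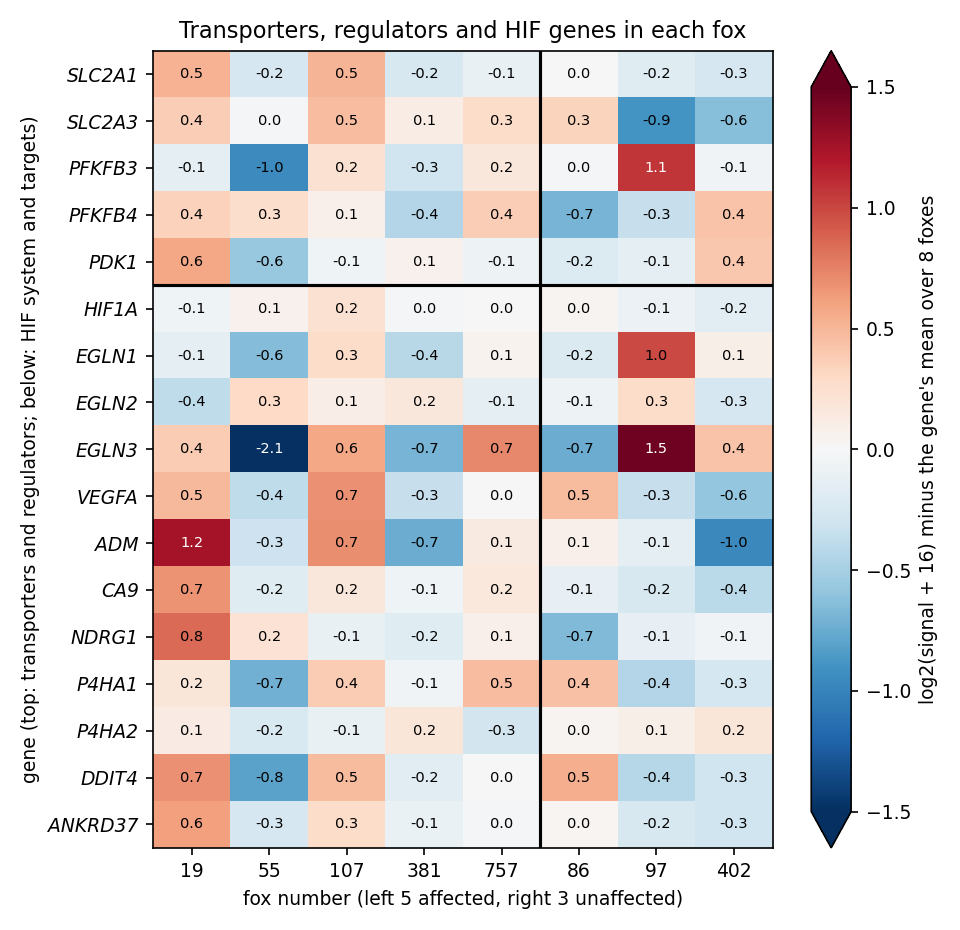
Log2(signal + 16) of each tested transporter or regulator (upper block) and hypoxia-response gene (lower block) in each fox, centred on the gene's mean over the 8 foxes, with the 5 affected foxes on the left and colours capped at the ends of the bar. Fox 19 and fox 107 are mostly above the mean and fox 55 mostly below it in the lower block, and fox 97 stands out in PFKFB3, EGLN1 and EGLN3.

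HIF1A, the oxygen-regulated subunit, read 6139, 6709.8, 7531, 6387 and 6486 in the affected foxes and 6617, 6044 and 5757 in the unaffected foxes. The ranges overlapped, and the spread among foxes was among the smallest of all probe sets (percentile 3.46). Means were 6651 ± 533 (SD, n = 5) and 6139 ± 438 (SD, n = 3), a difference of 0.11 ± 0.15 (SE; limma, unadjusted p = 0.474, adjusted p = 0.9999). The 2 other probe sets of HIF1A gave -0.41 and -0.63. The second read 1574, 843, 3330, 1538 and 3596 in the affected foxes and 3592, 2118 and 2132 in the unaffected foxes. Foxes 107, 757 and 86, all of high 5' actin, were the highest 3, and fox 55, which had the lowest 5' actin, was the lowest. Fox 97, also of high 5' actin, went the other way: it read 2118, below fox 402 of low 5' actin at 2132. Within the foxes of high 5' actin those 2 probe sets gave 0.33 and 0.09, and within those of low 5' actin -0.74 and -1.05, while the brightest gave 0.14 and 0.15. Whether the length of the labelled RNA set them apart was not tested.

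Of the prolyl hydroxylases, EGLN1, the main oxygen sensor for HIF, read 207, 140.2, 281, 168 and 238 in the affected foxes and 194, 472 and 245 in the unaffected foxes. As in PFKFB3 and PKM, fox 97 was far above the rest. The difference was -0.46 ± 0.30 (SE; limma, unadjusted p = 0.156, adjusted p = 0.9999) and -0.11 without fox 97. EGLN3, a feedback hydroxylase that HIF itself induces, read 146, 12.5, 169, 60.5 and 189 in the affected foxes and 58.4, 327 and 151 in the unaffected foxes. Fox 97 was again the highest and fox 55 was at background. TP63, a keratinocyte marker, was likewise highest in fox 97 (181) and at background in fox 55 (2.64). The summed keratinocyte markers were highest in fox 97 (21318, against 9053 to 20658 in the other foxes), with fox 402 close behind. KRT13, at 12982 in fox 97, made up most of that sum. The other markers of the list peaked elsewhere, DSG3 in fox 402, DSP in fox 19 and CDH1 in fox 757. The part of keratinocytes in the fox 97 readings of EGLN3, EGLN1 and PFKFB3 was not tested. The EGLN3 means were 115 ± 75.5 (SD, n = 5) and 179 ± 136 (SD, n = 3), with a difference of -0.61 ± 0.68 (SE), -0.072 without fox 97 and -0.14 without fox 55. It was 0.29 within the foxes of high and -1.24 within those of low 5' actin.

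EGLN2 read 192, 315, 274, 286 and 229 in the affected foxes and 239, 311 and 210.0 in the unaffected foxes. The groups covered nearly the same range, with means of 259 ± 48.7 (SD, n = 5) and 253 ± 51.8 (SD, n = 3) and a difference of 0.028. The third probe set of EGLN2, a dim one singled out after its values were seen, read 22.5, 25.5, 29.2, 40.6 and 20.9 in the affected foxes and 63.2, 63.1 and 55.9 in the unaffected foxes. There each affected fox lay below each unaffected fox, as in 1.52% of all probe sets, which by itself fixes the order within both actin sets and both sexes. The difference was -0.83 ± 0.18 (SE; limma, unadjusted p = 0.0011, adjusted p = 0.9999). The second probe set of EGLN2 gave 0.04, so the 3 probe sets of this gene disagreed. What the third probe set reads in fox RNA was not tested. Of the 21 genes with several tested probe sets, 18 had all of them on one side of 0, the exceptions being HIF1A, EGLN2 and VEGFA.

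Among the secreted targets, ADM, the vasodilator peptide adrenomedullin, had the largest positive difference of the class. ADM read 1299, 432, 887, 314 and 593 in the affected foxes and 568, 489.8 and 268 in the unaffected foxes. Foxes 19 and 107 were the highest and foxes 402 and 381, both female, the lowest, so the groups overlapped widely. The means were 705 ± 395 (SD, n = 5) and 442 ± 155 (SD, n = 3), a difference of 0.55 ± 0.43 (SE; limma, unadjusted p = 0.235, adjusted p = 0.9999), 0.29 without fox 19 and 0.23 without fox 402. VEGFA, the growth factor that brings in new capillaries, read 1022, 552, 1176, 566 and 729 in the affected foxes and 1012, 566 and 481 in the unaffected foxes. Foxes 19, 107 and unaffected fox 86 were high and the other foxes lower, with a difference of 0.24 ± 0.32 (SE; limma, unadjusted p = 0.470, adjusted p = 0.9999), and 0.028 without fox 402. The second probe set of VEGFA gave -0.21.

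CA9, a cell-surface carbonic anhydrase that disposes of acid and is one of the most specific HIF targets, had the smallest p of the class. CA9 read 113, 54.9, 74.1, 60.6 and 73.8 in the affected foxes and 58.0, 52.2 and 44.6 in the unaffected foxes. Only affected fox 55 lay within the unaffected range, and fox 19 stood above the others. The means were 75.2 ± 22.5 (SD, n = 5) and 51.6 ± 6.71 (SD, n = 3), a difference of 0.40 ± 0.21 (SE; limma, unadjusted p = 0.0869, adjusted p = 0.9999). It was 0.40 in males and 0.45 in females, 0.27 without fox 19, and 0.27 by the second probe set.

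NDRG1, a stress-induced gene that also marks differentiating epithelium, read 113, 67.0, 50.1, 47.0 and 59.3 in the affected foxes and 29.3, 49.5 and 53.1 in the unaffected foxes. Fox 19 was the highest and fox 86 the lowest, and 3 of the affected foxes lay near unaffected foxes 97 and 402. The difference was 0.45 ± 0.26 (SE; limma, unadjusted p = 0.116, adjusted p = 0.9999), 0.28 without fox 19 and 0.26 without fox 86; it was 0.71 in males and -0.0029 in females. The summed markers of cornifying keratinocytes, 7 measured genes of 10 listed, were at their extremes in the same 2 foxes. The sum was 16137 in fox 19, the highest, and 1746 in fox 86, the lowest. It spanned 5857 to 16137 over the affected and 1746 to 10690 over the unaffected foxes, and 6 of the 7 read higher in affected foxes. The single markers differed. KRT10 (5124), KRT1 (1042) and KLK7 were highest in fox 19, but IVL was highest in fox 107, TGM3 and TGM1 in fox 55 and DSC1 in fox 402. KRT10, IVL, TGM3 and TGM1 were lowest in fox 86, KRT1 and KLK7 in fox 97 and DSC1 in fox 757. Fox 86 also had the highest summed fibroblast markers (30283, against 8070 to 27124 in the other foxes). Their part in the NDRG1 result, and in the low enzyme readings of fox 86, was not tested.

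**Figure D4:**
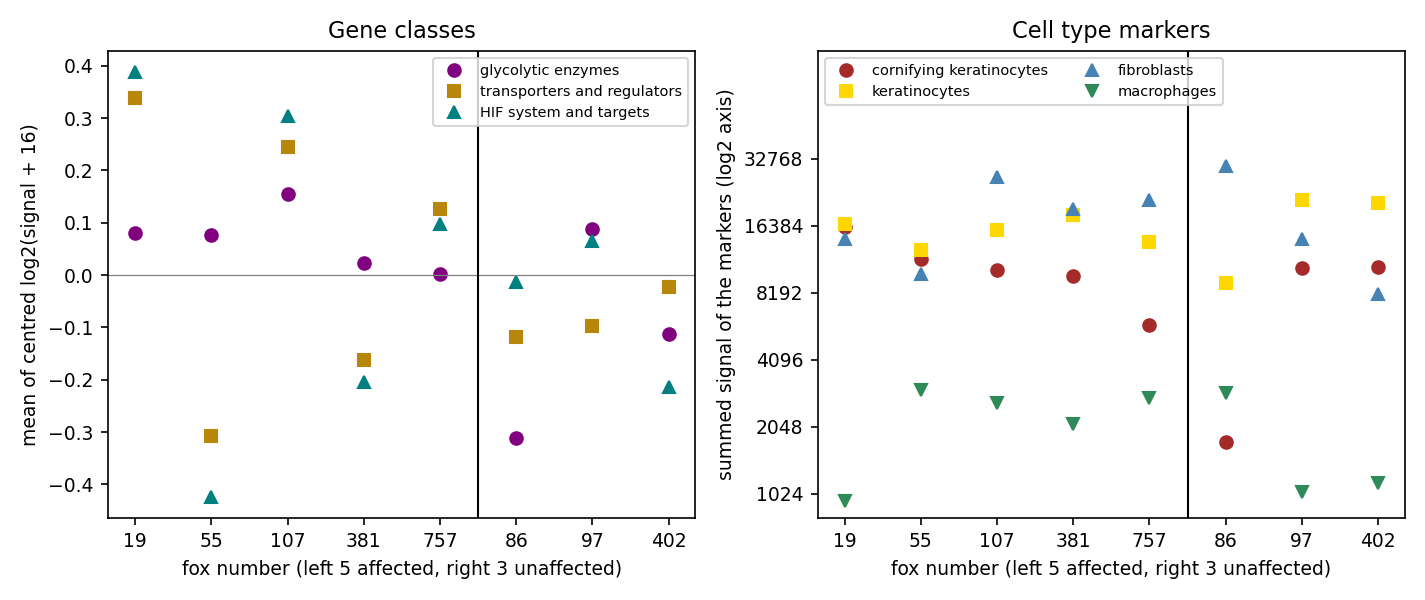
Left, mean centred log2(signal + 16) of each gene class in each fox; right, summed signal, on a log2 axis, of the markers of cornifying keratinocytes, keratinocytes, fibroblasts and macrophages in each fox, with the 3 unaffected foxes to the right of the line. Fox 86 is lowest for the enzymes (-0.31) and for cornifying keratinocytes (1746), and foxes 19 and 55 are the highest (0.39) and lowest (-0.42) for the hypoxia genes.

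The remaining targets had groups that overlapped. The collagen prolyl hydroxylases, which HIF raises in matrix-forming cells, read 362 ± 108 and 327 ± 118 (P4HA1) and 1019 ± 147 and 1142 ± 57.0 (P4HA2), affected then unaffected. Their differences were 0.14 and -0.17, and all 6 probe sets of P4HA2 read lower in affected foxes, by differences from -0.38 to -0.03. DDIT4, an inhibitor of mTOR signalling, read 152 ± 62.9 and 139 ± 61.1, a difference of 0.10. ANKRD37, a small HIF-induced ankyrin protein, read 187 ± 51.2 and 148 ± 20.5, a difference of 0.27 ± 0.22 (SE). BNIP3, which promotes the removal of mitochondria, read 8.03 ± 6.65 and 6.43 ± 3.27 and lay at background in 5 affected and 2 unaffected foxes, so no difference was detectable at this signal.

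Of 47 other genes of these pathways that were tested, 28 had the higher mean in affected foxes and 19 the lower, with a median of 0.024, where 43.5% of all probe sets read higher. An unadjusted p under 0.05 was found in 2, against 2.69% of all probe sets. By subset, 11 of 19 further genes of glycolysis and pyruvate use were higher (median 0.010), 4 of 5 genes of the pentose phosphate branch, gluconeogenesis and glycogen (median 0.29), 4 of 8 partners and regulators of HIF (median -0.11) and 9 of 15 further HIF targets (median 0.0049). The smallest p among the higher ones belonged to PGD, an NADPH-making enzyme of the pentose phosphate branch that begins at glucose 6-phosphate, the sugar that GPI also uses. PGD read 3737, 4312, 3823, 3532 and 3315 in the affected foxes and 2782, 2423 and 3041 in the unaffected foxes, with no overlap and, as in GPI, fox 55 at the top; the difference was 0.44 ± 0.16 (SE; limma, unadjusted p = 0.0221, adjusted p = 0.9999). PDK4, a pyruvate dehydrogenase kinase, followed with means of 33.6 and 15.3 and a difference of 0.59 (limma, unadjusted p = 0.0661, adjusted p = 0.9999).

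Among the lower ones, EPAS1, which encodes HIF-2 alpha, the form prominent in endothelium, had means of 175 in affected and 294 in unaffected foxes. It read 352 and 334 in unaffected foxes 97 and 402, above all affected foxes (128 to 226), but 196 in unaffected fox 86. The difference was -0.69 ± 0.26 (SE; limma, unadjusted p = 0.0226, adjusted p = 0.9999). The summed endothelial markers (629 to 1117, affected; 609 to 1384, unaffected) were highest in fox 86 and lowest in fox 402. VHL, the recognition part of the ligase that destroys HIF alpha, had means of 196 and 319 and a difference of -0.76 ± 0.38 (SE; limma, unadjusted p = 0.0734, adjusted p = 0.9999), with fox 55 the lowest at 68.7 and affected fox 19 at 317.

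Sex was tested beside the group. Between males and females 1 probe set of all passed at an adjusted p under 0.05 (0.00388%), and none of the 31 genes did; 1 of the 31 genes, ADM, had an unadjusted p under 0.05, against 2.29% of all probe sets. ADM averaged 735 ± 361 (SD, n = 5) in males and 392 ± 176 (SD, n = 3) in females, a male minus female difference of 0.88 ± 0.35 (SE; limma with a term for group, unadjusted p = 0.0338, adjusted p = 0.9999). VEGFA followed, with 866 ± 287 and 592 ± 126 (0.51 ± 0.30, SE; limma, unadjusted p = 0.121, adjusted p = 0.9999), then SLC2A1, with 1892 ± 499 and 1468 ± 80.6 (0.34 ± 0.22, SE; limma, unadjusted p = 0.160, adjusted p = 0.9999). The difference between affected and unaffected foxes did not pass a test of unequal size in the sexes for any gene (0% of all probe sets at an adjusted p under 0.05 in limma). At an unadjusted p under 0.05 the interaction passed in 1 of 31 genes, PFKFB4, against 2.48% of all probe sets. PFKFB4 differed by 0.75 in males and -0.46 in females, an interaction of 1.21 ± 0.50 (SE; limma, unadjusted p = 0.0408, adjusted p = 0.99995). There was 1 unaffected female, so the precision of this comparison is low.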

How the data were processed

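The authors deposited 1 linear intensity per probe set and array, MAS5 signal per the submitters' processing notes, with no version; no source used here gives its background method or scaling target. The deposited intensities had a trimmed mean of 150.0 on each array. Of 43035 probe sets 111 were controls; of the rest 29254 had 1 gene symbol in the platform annotation, 439 several and 13231 none here, and genes were named only from a single symbol. Values were taken as log2(signal + 16), controls and the dimmest 40% were removed, and 25754 probe sets were fitted with limma 3.58.1 in R 4.3.3 (lmFit, eBayes, Benjamini-Hochberg, threshold 0.05) on group alone; sex and its interaction were fitted apart. The fit was tested on simulated data, where 32.4% of log2 changes of 1 and 81.8% of those of 2 were recovered. The differences of the 31 tested genes, from -0.61 to 0.64, were smaller than either size. Background is the 95th percentile of 42 bacterial probe sets per array. Replicates are single foxes with no shared numbers, and p-values measure the spread between them.

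The members and lists were chosen with earlier results of these data known. By rule, all members are named with their means, and every fox's values are given for the 4 of smallest p in each class and for HIF1A, LDHA, SLC2A1, VEGFA, CA9 and PFKFB3; values of EGLN2 and EGLN3 were added after they were seen. At most 2 other pathway genes per direction, and 3 members in the sex fits, are named. A contrast of LDHA with LDHB was not analysed here. Alternatives covered the offset, scaling, filter, sex, 5' actin set, probe set choice, threshold and each fox left out.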

Additional observations from a re-analysis of the deposited data

Results flagged for a closer look

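The signal of GPI in affected fox 55, 6903, stood apart from the other 4 affected foxes: on the log2 scale its gap to the next fox, as a share of the group's range, was above Dixon's 95% critical value. Each of the 31 tested members was examined in the affected group, 1 such gap was found, and chance gives about 1 in 20 groups. Without that fox the GPI difference was 0.38.

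The GAPDH control probe sets lie outside the main measurement, and 4 of the 6, which read a single transcript, were higher in each affected fox than in each unaffected fox, as were 0.909% of all probe sets. The log2 differences were 0.29 and 0.38 for the 5' and middle probe sets of the first series and 0.41 and 0.47 for those of the second.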

How the results depend on the processing

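No probe set passed the test of affected against unaffected foxes under any alternative, a threshold of 0.1 included, and the sex and interaction fits kept counts of 1 and 0. Of the 31 genes, 15 kept their sign in all 13 other settings and with each of the 8 foxes left out, among them GPI, PGK1, ENO1, TPI1, SLC2A3 and CA9. For GPI, PGK1 and ENO1 the separation of the groups fixes the sign in every subset, at every offset and with any fox left out. Those runs are therefore no check on these genes. The cause of the turns listed next was not tested. In females alone (2 against 1) the median of the transporters and regulators was -0.014, and the sign turned for HK1 (-0.086), HK2 (-0.087), PGAM1 (-0.092), PKM (0.26), LDHA (-0.010), PFKFB4 (-0.46) and NDRG1 (-0.0029); in males alone it turned for PFKL (-0.10), PDK1 (0.16), EGLN2 (-0.092) and P4HA1 (-0.051). Within foxes of high 5' actin it turned for PFKM (-0.036), PFKP (0.0090), PDK1 (0.10), EGLN2 (-0.12) and EGLN3 (0.29), and within those of low 5' actin for PKM (0.17) and PFKFB4 (-0.37), which was also the class median there, -0.37. Quantile normalization turned LDHA (-0.012) and HIF1A (-0.023), centring on the median turned PDK1 (0.0365), and the mean over probe sets turned HIF1A (-0.31) and EGLN2 (-0.25). With each fox left out in turn, the differences ran from -0.17 to 0.30 for HK1, -0.019 to 0.12 for PFKL, -0.24 to 0.11 for PFKP, -0.32 to 0.19 for PKM, -0.18 to 0.16 for PDK1, -0.090 to 0.18 for EGLN2, -0.042 to 0.40 for P4HA1, -0.087 to 0.40 for DDIT4, -0.029 to 0.30 for HK2 minus HK1 and 0.42 to 1.37 for PFKFB4 minus PFKFB3. The 6 GAPDH controls kept in the fit are an alternative chosen after seeing the data. No paired analysis was possible because the groups share no fox numbers. The number of arrays limits precision: differences near the median standard error of 0.23 were within reach of a single fox, and SLC16A3, BNIP3 and ENO2 lay near background.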
